A study of Mus musculus with 16 samples.

Results

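The 9 genes Sis, Lct, Treh, Slc5a1, Slc2a2, Slc2a5, Khk, Fbp1 and G6pc, which digest, absorb and process dietary sugar, were followed in small intestine with and without epithelial HNF4A, a nuclear receptor that many enterocyte genes depend on. They were chosen by name, with every probe that the array assigns to them. Of the 25697 probes on the array, 10 carry the symbol of 7 of these genes. Sis has 1 further probe under an older name, 2010204N08Rik, which RefSeq lists as its synonym. Lct, lactase, was not analysed here. The 8 genes with probes thus have 11 probes, of which 10 passed the filter on detection (a detection p under 0.05 on at least 6 of 16 arrays), and 7 of the 9 genes were tested. Slc2a5 did not pass that filter and is described without a place in the test across genes.

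The samples were small intestinal tissue from 16 mice, 8 labelled Hnf4a wildtype and 8 labelled Hnf4a knockout, with 1 Illumina bead array each. The knockout mice carried loxP-flanked Hnf4a alleles (Hnf4a fl/fl, labelled Hnf4a-/- after recombination) and VillinCreERT2, a tamoxifen-inducible Cre driven by the villin promoter, which acts in the intestinal epithelium and leaves Hnf4a intact in other cells. The wildtype mice lacked the Cre; the protocol gives them Hnf4a fl/fl alleles while their genotype label reads Hnf4a+/+, and the labels do not settle this. Both groups received 1 mg of tamoxifen by gavage on 5 days, were exposed to 14 Gy of gamma rays over the whole body 3 weeks later, and were killed 96 h after that. No unirradiated mouse and no Cre-positive mouse without the floxed alleles was measured, and neither ages nor the segment of intestine are given. The arrays lay on 2 slides, each with 4 wildtype and 4 knockout arrays. Between 46.9% and 53.1% of probes were detected on an array, and correlations between arrays lay between 0.951 and 0.993. Levels are log2 normalized intensities, which do not compare one probe with another, and differences are knockout minus wildtype on that scale.

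Starch and disaccharides are cut to single sugars by enzymes anchored in the enterocyte's brush border, among them sucrase-isomaltase, lactase and trehalase. Glucose and galactose then enter through the sodium-coupled carrier SGLT1 (Slc5a1) and fructose through GLUT5 (Slc2a5), and GLUT2 (Slc2a2) passes sugars across the basolateral membrane. The small intestine also converts much of the fructose it takes up, beginning with ketohexokinase (Khk), and holds the enzymes fructose-1,6-bisphosphatase and glucose-6-phosphatase with which fructose carbon can leave as glucose. HNF1, HNF4, CDX and GATA factors are known to bind promoters of such genes.

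The promoters of 4 of these genes are shown: Slc2a2 and G6pc because the relation between their brightest probes parted with genotype, and Treh and Khk because, with G6pc, they hold an HNF4-type motif before the start. Each runs 5′ to 3′ on the gene's strand from 250 bases before to 50 bases into the start of the RefSeq gene (GRCm38.p6). They lie at chr9:44672983-44673282 (Treh), chr5:30921309-30921608 (Khk), chr3:28697653-28697952 (Slc2a2) and chr11:101367466-101367765 (G6pc), all on the plus strand. Capitals mark matches to the searched letters on either strand.
Treh: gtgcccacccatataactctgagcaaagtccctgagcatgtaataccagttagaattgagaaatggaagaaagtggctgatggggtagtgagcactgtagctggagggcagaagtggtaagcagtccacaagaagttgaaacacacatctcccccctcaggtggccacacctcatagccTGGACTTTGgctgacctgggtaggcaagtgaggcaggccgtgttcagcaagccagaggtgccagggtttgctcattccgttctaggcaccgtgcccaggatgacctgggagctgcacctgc
Khk: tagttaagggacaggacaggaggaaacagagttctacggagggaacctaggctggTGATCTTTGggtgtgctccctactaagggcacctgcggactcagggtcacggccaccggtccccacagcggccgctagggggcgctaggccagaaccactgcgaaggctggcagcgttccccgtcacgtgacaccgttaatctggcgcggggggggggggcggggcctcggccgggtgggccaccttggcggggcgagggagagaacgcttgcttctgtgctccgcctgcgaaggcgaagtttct
Slc2a2: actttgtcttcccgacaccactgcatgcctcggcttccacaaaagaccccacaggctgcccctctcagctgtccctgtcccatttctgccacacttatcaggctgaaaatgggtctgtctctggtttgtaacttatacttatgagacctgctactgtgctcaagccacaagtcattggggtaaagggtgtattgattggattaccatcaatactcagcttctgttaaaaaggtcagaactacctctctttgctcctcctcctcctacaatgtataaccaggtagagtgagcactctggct
G6pc: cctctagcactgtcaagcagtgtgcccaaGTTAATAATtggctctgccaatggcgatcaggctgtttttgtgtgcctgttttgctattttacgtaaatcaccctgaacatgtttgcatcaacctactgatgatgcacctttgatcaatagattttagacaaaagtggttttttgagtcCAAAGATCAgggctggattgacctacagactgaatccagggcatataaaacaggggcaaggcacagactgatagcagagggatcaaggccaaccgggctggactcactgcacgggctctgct

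Searched on both strands, an HNF4-type motif written CAAAGNNCA stood in 4 of the 9 promoters, those of Treh, Slc5a1, Khk and G6pc, and in 6.36% of the 32851 mouse promoters of this length. In Treh and G6pc its first base lay 71 and 72 bases before the start, in Khk 195 bases before it, and in Slc5a1 at base 25, counting the start as the first base. An HNF1-type motif, GTTAATNAT, stood in the G6pc promoter and in 0.801% of all promoters. A CDX-type motif, TTTATNG, stood in the Sis promoter (10.9% of all), and a GATA-type motif, AGATAA, in those of Lct and Fbp1 (11.2% of all). In the G6pc promoter the HNF1-type and HNF4-type matches do not overlap. Neither the Slc2a2 nor the Slc2a5 window held any of these letters, which says nothing about binding at those genes. Of the 4 genes with the HNF4-type letters, none passed the test described below, though Khk came near it (limma adjusted p = 0.0542). Fbp1, which passed (limma adjusted p = 0.0349), lacks them in this window. Whether the letters bear on these differences was not tested.

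The targeted gene was lower on every knockout array. Hnf4a ranged from 11.91 to 12.50 (median 12.24) in wildtype and from 10.17 to 10.71 (median 10.50) in knockout tissue, so the groups did not overlap. The difference was -1.75 (SE 0.10, limma adjusted p = 2.06e-09), which left 29.8% of the wildtype signal. Whether this probe reads the deleted part of the gene is not given, and the non-epithelial cells of the tissue keep the gene. The source of the remaining signal was not tested.

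Against that loss of Hnf4a, 1 of the 7 sugar genes tested was lower in knockout tissue at an adjusted p under 0.05, and none was higher. The gene was Fbp1, whose probe stood at the limit of the detection filter, and the call was lost without that filter. Over all genes, 30.7% passed this threshold (3115 of 10143), 17.2% lower and 13.5% higher, so the count among the sugar genes is no larger than that background. In all 7 the ranges of the 2 groups overlapped, while 6.9% of all genes had groups that did not. The median difference of the 7 was -0.41, beside -0.02 over all genes tested and -0.17 over the 14 villus enterocyte genes described below. The 7 values are not independent, since most of these genes rose and fell together over the arrays. In bulk tissue, fewer cells of a type and less RNA per cell cannot be told apart, and this holds for each value below.

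**Figure D1:**
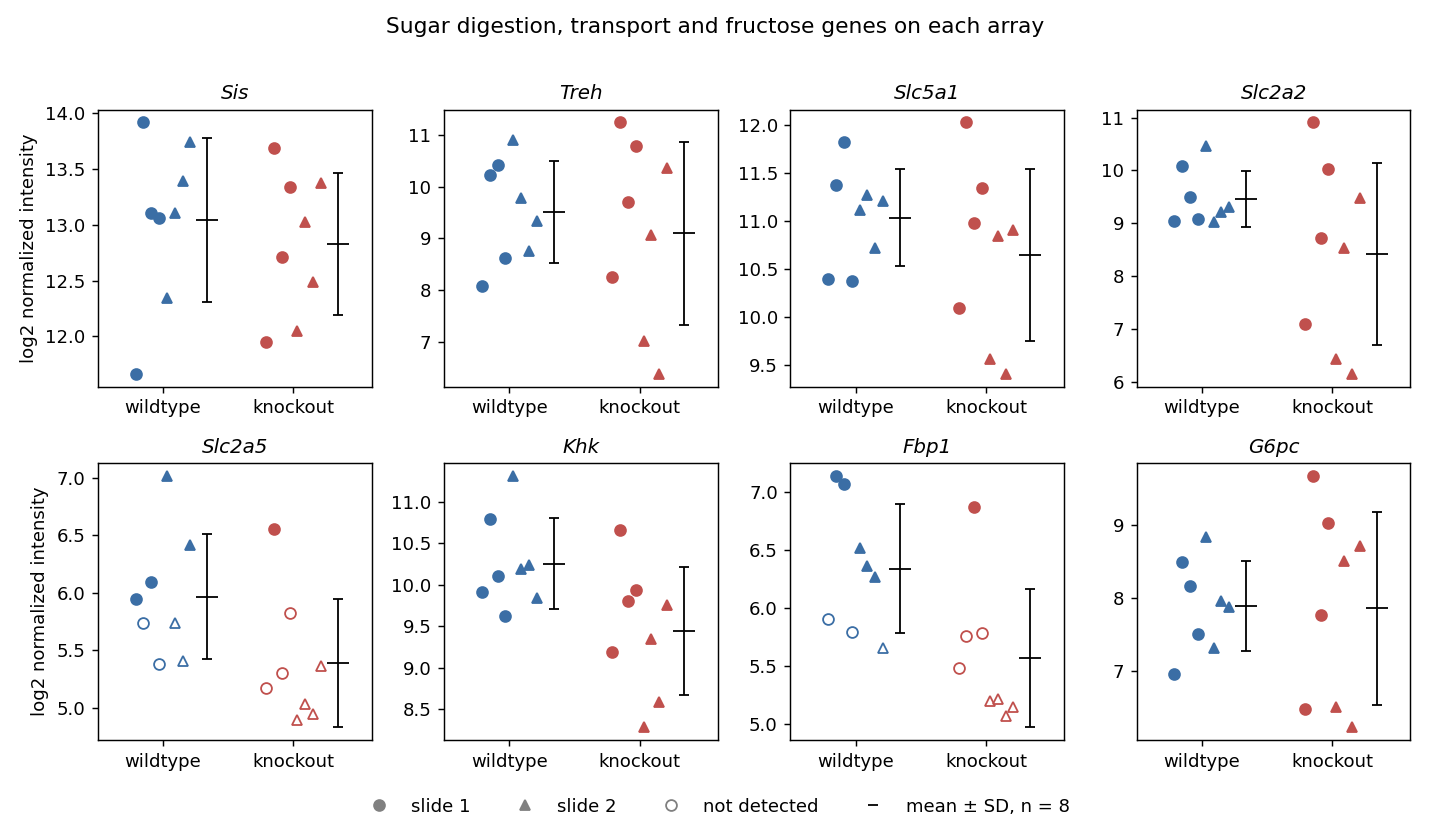
Log2 normalized intensity (vertical axis) of the brightest probe of each of the 8 genes on each wildtype (blue) and knockout (red) array, with circles for slide 1, triangles for slide 2, open symbols where the probe was not detected, and bars for the mean ± SD of 8 arrays. In Treh, Slc5a1, Slc2a2 and G6pc the knockout points spread from below the lowest wildtype array to above the highest.

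Among the brush border hydrolases, sucrase-isomaltase (Sis), which cuts sucrose and the branch points of starch, was bright in both groups. Sis ranged from 11.66 to 13.92 (median 13.10) in wildtype and from 11.94 to 13.69 (median 12.87) in knockout tissue. The knockout range lay inside the wildtype range. The difference was -0.21 (SE 0.31, 95% interval -0.88 to 0.45, limma adjusted p = 0.645), and between -0.41 and -0.09 with 1 array left out. Trehalase (Treh), which splits the fungal and insect sugar trehalose, ranged from 8.07 to 10.91 (median 9.56) in wildtype and from 6.38 to 11.24 (median 9.38) in knockout tissue. Of the 8 knockout arrays, 2 lay below every wildtype array and 1 above every one. Its difference of -0.41 (SE 0.65, interval -1.78 to 0.95) did not pass the test (limma adjusted p = 0.668), and its sign differed between the slides, 0.67 on slide 1 and -1.49 on slide 2. With 1 array left out it lay between -0.72 and -0.02.

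Among the carriers, the apical glucose carrier Slc5a1 ranged from 10.37 to 11.83 (median 11.16) in wildtype and from 9.40 to 12.03 (median 10.87) in knockout tissue. Again the knockout values surrounded the wildtype values, with 3 arrays below and 1 above all of them. The difference was -0.39 (SE 0.33, interval -1.09 to 0.31, limma adjusted p = 0.401), and it was 0.12 on slide 1, -0.90 on slide 2 and between -0.59 and -0.21 with 1 array left out. The basolateral carrier Slc2a2 had the lowest mean of the 7 relative to wildtype, at 48.4%, but also the widest change in spread. It ranged from 9.02 to 10.46 (median 9.26) in wildtype and from 6.14 to 10.91 (median 8.62) in knockout tissue. In the knockout group 5 arrays lay below every wildtype array and 1, array 2, lay above every one. The difference of -1.05 (SE 0.58, interval -2.27 to 0.17) did not pass the test (limma adjusted p = 0.183). The 2 dimmer Slc2a2 probes differed in the same direction, by -0.76 and -0.45, with adjusted p-values of 0.146 and 0.414 when limma was fitted per probe. The dimmer of them was detected on 4 wildtype and 3 knockout arrays.

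The apical fructose carrier Slc2a5 was close to the limit of detection. Its probe was detected on 4 wildtype arrays and 1 knockout array. It ranged from 5.38 to 7.02 (median 5.84) in wildtype and from 4.89 to 6.55 (median 5.24) in knockout tissue, and 6 of 8 knockout arrays lay below every wildtype array. The difference of -0.58 gave p = 0.0545 in an exact two-sided permutation test over the 12870 splits of 8 against 8. At this signal a difference in the fructose carrier was not resolved, and the detection counts allow no statement that the transcript is absent.

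Ketohexokinase (Khk), which phosphorylates fructose and so commits it to fructolysis, was lower on most knockout arrays without passing the test. Khk ranged from 9.62 to 11.31 (median 10.15) in wildtype and from 8.28 to 10.66 (median 9.55) in knockout tissue. Of the 8 knockout arrays, 7 lay below the wildtype median and 4 below every wildtype array. The difference was -0.81 (SE 0.31, interval -1.45 to -0.16), or 57.2% of the wildtype signal, with an unadjusted p of 0.0171 and an adjusted p of 0.0542 from limma. The other Khk probe gave nearly the same value, -0.79, with an adjusted p of 0.0874 when limma was fitted per probe. By that probe 5 of 8 knockout arrays lay below the wildtype median. Khk passed the threshold under 13 of 35 alternative settings. On slide 1 the brighter probe differed by -0.21 and on slide 2 by -1.40. Which Khk isoform each probe reads is not given.

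Fructose-1,6-bisphosphatase (Fbp1), which returns triose carbon toward glucose, was the gene that passed. Fbp1 ranged from 5.66 to 7.14 (median 6.32) in wildtype and from 5.07 to 6.87 (median 5.35) in knockout tissue. Its probe was detected on 5 wildtype arrays and 1 knockout array, the fewest that the detection filter accepts. It thus entered the test mostly through the group in which it was higher, and without the filter it did not pass. The difference was -0.77 (SE 0.26, interval -1.33 to -0.22, limma adjusted p = 0.0349), with -0.50 on slide 1 and -1.04 on slide 2. Of the 8 knockout arrays, 5 lay below every wildtype array, and array 3 stood apart at 6.87. At so low a signal the call depends on single arrays, since leaving out any of 9 arrays (wildtype 2, 3, 5 or 6, knockout 1, 5, 6, 7 or 8) raised the adjusted p above 0.05, to at most 0.0716.

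The catalytic subunit of glucose-6-phosphatase (G6pc), which releases free glucose, had the same mean in both groups to within its error. G6pc ranged from 6.95 to 8.83 (median 7.91) in wildtype and from 6.22 to 9.67 (median 8.13) in knockout tissue. The difference was -0.03 (SE 0.47, interval -1.01 to 0.96, limma adjusted p = 0.976). In the knockout group 3 arrays lay below and 2 above every wildtype array, so a near-zero mean difference went with values on both sides of the wildtype range. Its sign turned under several settings, for example to 0.0659 without background correction.

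**Figure D2:**
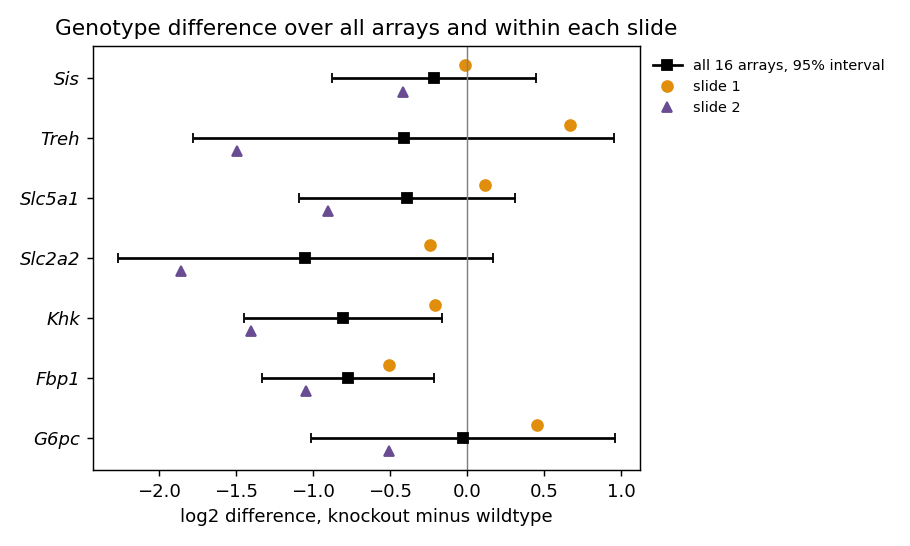
Log2 difference, knockout minus wildtype (horizontal axis), of the 7 tested genes, as the value over all 16 arrays with its 95% interval (black) and the values within slide 1 (orange) and slide 2 (purple). Each slide 2 value lies to the left of its slide 1 value, and the intervals of Khk and Fbp1 leave out zero.

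For all 7 genes the difference was more negative on slide 2 than on slide 1. The change between slides was -1.19 for Khk (limma interaction term, unadjusted p = 0.0465), -2.16 for Treh (unadjusted p = 0.0953) and -1.61 for Slc2a2 (unadjusted p = 0.164). No gene on the array passed the threshold for this interaction after adjustment over 10143 genes (314 had an unadjusted p under 0.05), and the adjusted p was 0.993 for each of the 7.

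The knockout arrays differed among themselves more than the wildtype arrays did for most of these genes. For Slc2a2 the SD rose from 0.53 in wildtype to 1.73 in knockout tissue, a ratio of 3.24 that 0.71% of all genes reached. For G6pc the ratio was 2.14 (reached by 5.27% of genes), for Treh 1.79 (10.9%) and for Slc5a1 1.78 (11.1%). Khk had a ratio of 1.40, Fbp1 of 1.07 and Sis of 0.869, beside a median of 1.06 over all genes. Treh varied widely in wildtype mice as well, with an SD of 0.99 that 0.749% of genes reached, where the median gene had 0.268. These ratios describe 8 arrays a group and were not tested.

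The same mice were low or high for nearly every gene. Knockout arrays 5 and 7 were among the 3 lowest of their group for all 7 genes and lay below every wildtype array for 6 of them. Knockout array 1 was among the 3 lowest for 6 genes. Knockout arrays 2 and 4 were among the 2 highest for 6 genes each, and array 2 exceeded every wildtype array for 4. The wildtype group showed the same kind of order, with arrays 1 and 4 among the 3 lowest for all 7 genes and array 2 among the 2 highest for 6.

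This order followed the general signal of villus enterocyte genes. The mean of 14 such genes, among them aminopeptidase N (Anpep) and the microsomal triglyceride transfer protein (Mttp), was 10.33 ± 0.43 for wildtype mice and 10.00 ± 0.74 for knockout mice (SD over 8 arrays), and 1 of the 14, Ada, passed the test, lower in knockout tissue. The summed linear signal of the 14 ran from 44587 to 74617 in wildtype and from 23802 to 81358 in knockout tissue. The probes of Fabp1 and Fabp2 did not pass the detection filter. The list mean was lowest on knockout arrays 7 and 5, at 8.97 and 9.12, and highest on knockout array 2, at 11.01. Taken as deviations from each group's mean over 16 arrays, Treh followed this mean with Pearson's r = 0.963 (Spearman's rho = 0.953; permutation p = 1e-05 for each, the smallest that 100000 permutations within genotype can give). Slc5a1 gave r = 0.938 (rho = 0.876), G6pc r = 0.937 (rho = 0.912), Slc2a2 r = 0.925 (rho = 0.918) and Khk r = 0.879 (rho = 0.853). For these 5 genes the p-values of r, adjusted over the 7 relations computed, lay between 2.33e-05 and 7e-05, those of rho between 7e-05 and 0.000238, by permutation. Within a slide their r lay between 0.861 and 0.972, and without knockout arrays 5 and 7, the arrays farthest from the median, between 0.815 and 0.939.

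For Sis and Fbp1 the values were lower over all arrays. Sis gave r = 0.666 (rho = 0.721; permutation adjusted p = 0.00582 and 0.00394), with 0.862 on slide 1 and 0.435 on slide 2, and with 0.396 among wildtype and 0.909 among knockout arrays. Fbp1 gave r = 0.490 (rho = 0.571; permutation adjusted p = 0.0601 and 0.0223), with 0.862 among wildtype and 0.308 among knockout arrays. All these values share the arrays and their normalization. The segment of intestine is not given, and the members also followed lists of segment genes, as a description over the same 16 arrays. With the mean of the proximal small intestine list r was 0.783 for G6pc, 0.780 for Slc2a2, 0.684 for Khk and 0.653 for Treh, and from 0.116 (Fbp1) to 0.539 (Slc5a1) for the others. With the distal list r lay between 0.413 (G6pc) and 0.630 (Sis). The part of the segment sampled in these values was not tested. With the pan-epithelial list r lay between 0.334 (Sis) and 0.574 (Fbp1). That list had the same mean in both groups, 12.36 ± 0.13 for wildtype and 12.36 ± 0.14 for knockout mice (SD over 8 arrays each).

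**Figure D3:**
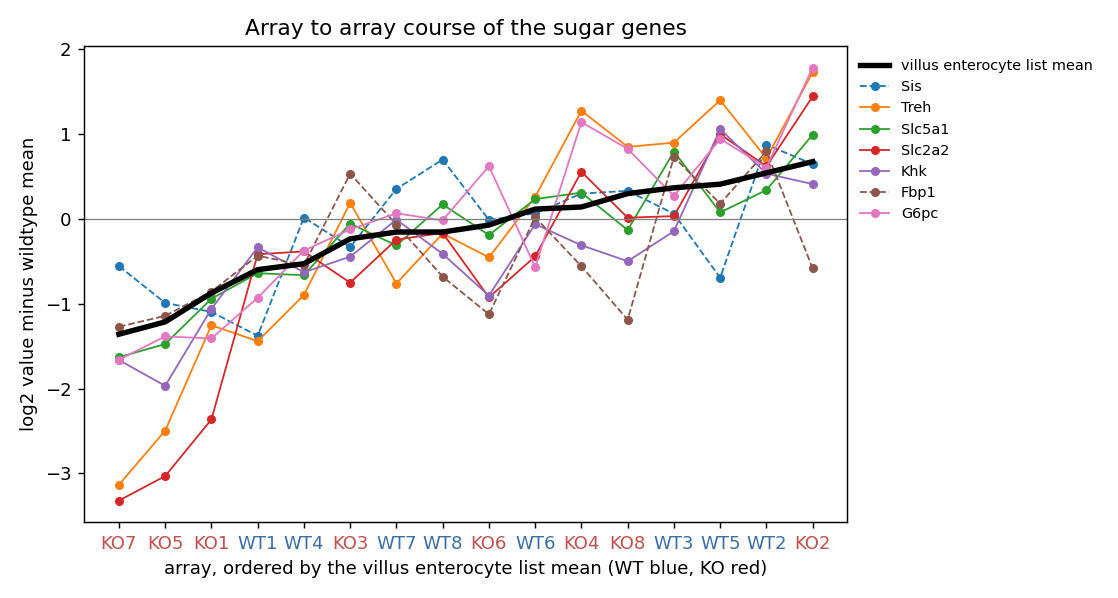
Log2 value minus the wildtype mean (vertical axis) of the 7 tested genes (thin lines) and of the villus enterocyte list mean (thick black line) on the 16 arrays, ordered by that list mean. Treh, Slc5a1, Slc2a2, Khk and G6pc rise along the order, from knockout arrays 7, 5 and 1 on the left to knockout array 2 on the right; Sis and Fbp1 are dashed.

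For each sugar gene, the genes whose course over the 16 arrays was most like its own were picked out. Treh was closest to Pdzk1, a scaffold of brush border transporters (r = 0.966), and to the neutral amino acid carrier Slc6a19 (r = 0.965). Slc5a1 was closest to Slc6a19 (r = 0.963) and to Slc7a9, a cystine and basic amino acid carrier (r = 0.956). Among the genes most like Slc2a2 were Tm4sf5 (r = 0.973) and G6pc (r = 0.958). G6pc was closest to Tm4sf5 (r = 0.978), Slc2a2 and Anpep (r = 0.954). Khk was closest to Gpt, an alanine aminotransferase (r = 0.950), the retinol-binding protein Rbp2 (r = 0.944) and Mttp (r = 0.941). Sis was closest to Iqgap2 (r = 0.919), and Fbp1 to Pstpip2 (r = 0.852). These are Pearson correlations of deviations from the group means, picked as the highest over all genes tested, and are given as a description.

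One relation between the sugar genes parted with genotype by their brightest probes: Slc2a2 was lower relative to G6pc in every knockout mouse than in any wildtype mouse. On each array the log2 value of G6pc was subtracted from that of Slc2a2. The level of this difference has no meaning, since the probes differ, but its change between arrays does. It ranged from 1.27 to 2.09 in wildtype (mean 1.58 ± 0.26) and from -0.08 to 1.24 in knockout tissue (mean 0.56 ± 0.53, SD over 8 arrays each), so the groups did not overlap. They came close, with wildtype array 7 at 1.27 and knockout array 2 at 1.24. The change was -1.02, with p = 0.000155 in the exact permutation test, the smallest that 12870 splits can give, and 0.00326 adjusted over the 21 pairs of tested genes. It was the 1 pair of 21 past 0.05. How often pairs of other genes part in this way was not computed. The next were Khk against G6pc, with -0.78, and Treh against Slc2a2, with 0.64 (exact permutation p = 0.0222 and 0.0278, each 0.195 adjusted over the pairs). On average each other tested sugar gene was also lower relative to G6pc in knockout tissue, with changes from -0.19 (Sis) to -0.78 (Khk). Slc2a2 was likewise lower relative to each of the others, so the change is not assigned to either gene of the pair. Tm4sf5, the gene most like G6pc, differed by -0.94 (limma adjusted p = 0.00751), beside -0.03 for G6pc.

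Both genes were low on knockout arrays 5 and 7, where Slc2a2 stood at 6.43 and 6.14 and G6pc at 6.50 and 6.22, near the dim end of the scale, and the difference there was -0.07 and -0.08. It was also below the wildtype range on arrays where both were bright. On knockout array 2 Slc2a2 stood at 10.91 and G6pc at 9.67, a difference of 1.24, on array 4 the difference was 0.99, and on array 8 it was 0.77. On knockout array 6 Slc2a2 stood at 8.54 and G6pc at 8.51, a difference of 0.03. The change was -0.70 on slide 1 and -1.35 on slide 2. With the other Slc2a2 probes in place of the brightest it was -0.74 (adjusted over the pairs, exact permutation p = 0.186) and -0.43 (adjusted p = 0.521), so the direction held and the call rests on the brightest probe. The pairs were computed after the data had been seen.

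**Figure D4:**
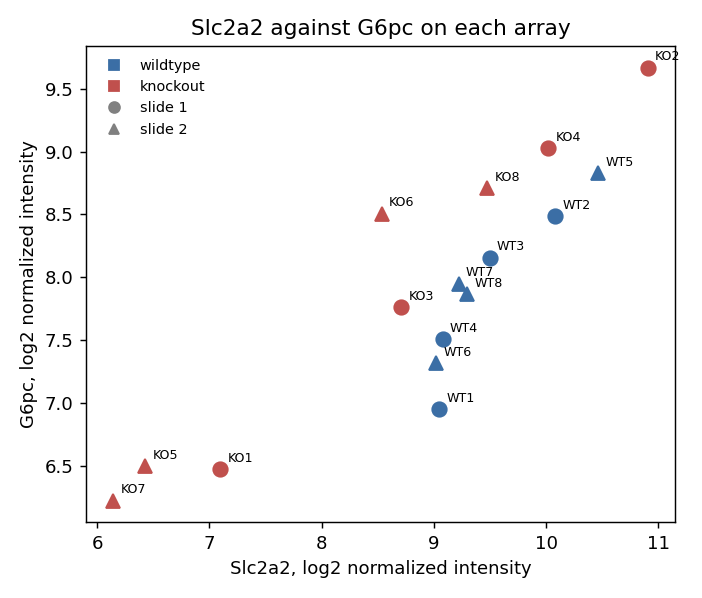
Log2 normalized intensity of G6pc (vertical axis) against that of Slc2a2 (horizontal axis) on each wildtype (blue) and knockout (red) array, with circles for slide 1 and triangles for slide 2. The knockout arrays have a lower Slc2a2 value relative to G6pc than the wildtype arrays, from knockout array 7 at 6.14 and 6.22 to knockout array 2 at 10.91 and 9.67.

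Around Khk, some enzymes of fructose and polyol handling were lower in knockout tissue. Of 8 tested fructose and polyol partners, 3 fell, none rose and 5 did not pass, with a median difference of -0.29. Over all genes 17.2% fell and 13.5% rose, and the counts of this and the following lists stand beside those shares. Whether a list departs from them was not tested. Tkfc, the kinase that phosphorylates the glyceraldehyde made from fructose, fell from 9.34 ± 0.45 to 8.20 ± 0.79 (SD, n = 8 each), a difference of -1.14 (SE 0.29, limma adjusted p = 0.00745). Gpd1, which turns dihydroxyacetone phosphate into glycerol-3-phosphate, fell from 8.31 ± 0.48 to 7.56 ± 0.67, by 0.75 (limma adjusted p = 0.041), a call lost in 16 of 35 alternatives. Sord, which makes fructose from sorbitol, fell from 10.01 ± 0.16 to 9.65 ± 0.29, by 0.36 (limma adjusted p = 0.0288).

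The enzymes of the galactose (Leloir) pathway, which turns galactose into glucose phosphates, were mostly lower in knockout tissue. Of 6 tested members 4 fell and none rose, with a median difference of -0.42. Galm, which converts beta- to alpha-galactose, fell from 9.18 ± 0.34 to 8.21 ± 0.37, by 0.97 (SE 0.17, limma adjusted p = 0.000497). Galactokinase (Galk1) fell from 9.27 ± 0.29 to 8.49 ± 0.35, by 0.78 (SE 0.15, limma adjusted p = 0.00125). The uridylyltransferase Galt fell from 10.73 ± 0.16 to 10.34 ± 0.15, by 0.40 (limma adjusted p = 0.00266).

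Gluconeogenesis partners of Fbp1 and G6pc did not move together. Of 11 tested, 1 fell and 1 rose, with a median difference of -0.09. Triose phosphate isomerase (Tpi1) fell from 13.95 ± 0.15 to 13.71 ± 0.09, by 0.25 (limma adjusted p = 0.0242), and Ldhd, a D-lactate dehydrogenase, rose from 7.72 ± 0.64 to 8.61 ± 0.34, by 0.88 (limma adjusted p = 0.00996). The gatekeeping enzyme Pck1 stood at 6.20 ± 0.30 in wildtype and 6.80 ± 1.09 in knockout tissue (limma adjusted p = 0.226).

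Regulators that respond to sugar changed in both directions. Of 8 tested, 3 fell and 2 rose. Mlxipl (ChREBP), the factor that senses sugar phosphates, fell from 9.76 ± 0.34 to 8.67 ± 0.74, by 1.09 (SE 0.26, limma adjusted p = 0.00508). Its partner Mlx fell from 8.42 ± 0.17 to 7.58 ± 0.28, by 0.84 (SE 0.12, limma adjusted p = 7.46e-05). The coactivator Ppargc1a fell from 7.32 ± 0.42 to 6.51 ± 0.62, by 0.81 (limma adjusted p = 0.0194). The arrestins Arrdc4 and Txnip, both known targets of ChREBP-type factors, rose, Arrdc4 from 10.68 ± 0.17 to 11.43 ± 0.33, by 0.75 (limma adjusted p = 0.000451), and Txnip by 0.43 (limma adjusted p = 0.0177).

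**Figure D5:**
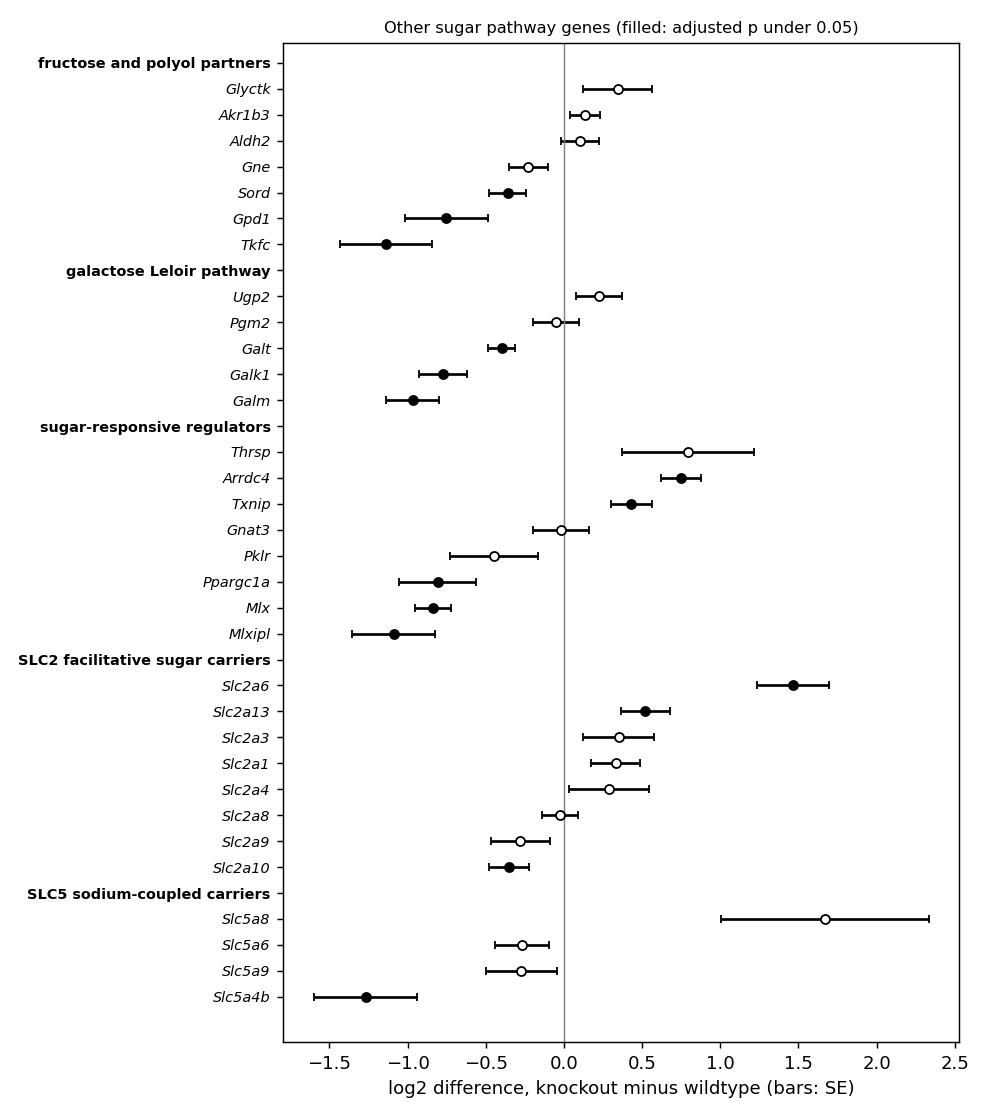
Log2 difference, knockout minus wildtype, with its SE (horizontal axis) for tested genes of 5 sugar lists, filled where the adjusted p was under 0.05. Of the 5 Leloir genes drawn 3 are filled and to the left of zero, and Slc2a6 stands farthest to the right among the filled points, at 1.47.

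Other sugar carriers showed no common direction. Of 8 tested SLC2 carriers, 2 rose and 1 fell. Slc2a6, known in mice as a lysosomal carrier of macrophages, rose from 7.88 ± 0.65 to 9.34 ± 0.27, by 1.47 (SE 0.23, limma adjusted p = 0.000211). The inositol carrier Slc2a13 rose from 5.84 ± 0.29 to 6.36 ± 0.36, by 0.52 (limma adjusted p = 0.0188), and Slc2a10 fell from 6.43 ± 0.16 to 6.08 ± 0.33, by 0.35 (limma adjusted p = 0.0477), a call lost in 26 of 34 alternatives. Beside the rise of Slc2a6 stands that of macrophage markers. Of 12 such genes, all tested, 10 rose and none fell, their mean level was 9.38 ± 0.39 in wildtype and 10.51 ± 0.48 in knockout mice (SD over 8 arrays each), and its summed linear signal ran from 11071 to 19512 in wildtype and from 21121 to 58319 in knockout tissue. Fcer1g differed most of the 12, at 7.81 ± 2.78 in wildtype (detected on 4 of 8 arrays) and 12.25 ± 0.26 in knockout tissue. It weighs on that mean and sum, while the others differed by at most 1.25 (Mrc1). The part of these 12 genes in this and the other differences was not tested.

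Of 4 tested SLC5 carriers, 1 fell. Slc5a4b, a relative of SGLT1 in rodents, was detected on 7 wildtype arrays and on 0 of 8 knockout arrays. Its mean was lower in knockout tissue (limma adjusted p = 0.00774), by 1.73-fold when set against the detection limit. This value sets the wildtype mean against the lowest detected signal of each knockout array, or the probe's own where higher. It makes no allowance for sampling error, so the true difference may be smaller. The probe met the detection filter through wildtype arrays alone, so the filter was not independent of this difference. The call held without the filter. Slc5a8, a monocarboxylate carrier, stood at 8.58 ± 1.79 in wildtype and 10.25 ± 1.04 in knockout tissue and did not pass (limma adjusted p = 0.0653). Of 10 tested genes of a list around the sodium gradient, which also holds scaffolds such as Pdzk1, 1 fell, 1 rose and 8 did not pass. The gene that rose was the pump subunit Atp1b3, by 0.26 (limma adjusted p = 0.0445), a call lost in 20 of 35 alternatives. Of the 4 tested hydrolases other than Sis and Treh, none passed; the smallest p was that of Ganab, a glucosidase of the endoplasmic reticulum, which differed by -0.14 (limma adjusted p = 0.336).

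Among 11 tested transcription factors known from brush border gene promoters, 2 fell and 1 rose. Besides Hnf4a, Gata6 fell from 11.34 ± 0.17 to 11.03 ± 0.12, by 0.31 (limma adjusted p = 0.0117). Klf4, a factor of differentiating epithelium, rose from 9.12 ± 0.46 to 9.79 ± 0.32, by 0.67 (limma adjusted p = 0.0121). The paralog Hnf4g stood at 6.66 ± 0.29 in wildtype and 6.23 ± 0.42 in knockout tissue (limma adjusted p = 0.0642), and Cdx2 at 11.98 ± 0.17 and 11.75 ± 0.25 (limma adjusted p = 0.118).

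Markers of other cell types that make glucose or hold these genes were examined as well. Fbp1, G6pc, Slc2a2 and Khk are also expressed in liver and kidney. The hepatocyte marker Alb was detected on 0 of 16 arrays, 2 of 9 hepatocyte genes passed the detection filter (Cyp2e1, which rose, and Ttr, which fell), 2 of 6 kidney tubule genes passed it, of which 1 fell, and none of the 3 tested exocrine pancreas genes passed the test. Proximal small intestine genes, of which 5 of 10 were tested, did not pass in either direction, with means of 8.83 ± 0.45 in wildtype and 8.74 ± 0.57 in knockout tissue. Among other lists, 6 of 8 endothelial and 4 of 8 fibroblast genes rose, none of 8 smooth muscle genes passed, 1 of 6 adipocyte genes rose, 1 of 7 distal small intestine genes fell, and 8 of 10 cell cycle genes fell. Their part in the values of the sugar genes was not tested.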

How the data were processed

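The deposited table gives, per the file headers, an intensity for each probe on each of 16 arrays that is not normalized, and beside it a detection p-value. A further deposited table holds an intensity per probe already processed by the authors with no method named in it, and it served as an alternative. Per the labels' protocols, RNA isolated with TRI Reagent was labelled with biotin as cRNA. The scanner's software was not given in the sources used here.

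Background was corrected by limma 3.58.1 in R 4.3.3 (normexp with an offset of 16, its negative control values derived from the detection p-values), and intensities were quantile normalized and converted to log2. Differences of dim probes depend on this step and were larger here than under other background settings. That of Fbp1 was -0.77 here, -0.49 with an offset of 50 and -0.45 without background correction. For Slc5a4b the values were -1.27, -0.88 and -0.73. Probes with a detection p under 0.05 on at least 6 of 16 arrays were kept (13460), and the brightest probe per gene was tested (10143 genes). Symbols were updated through RefSeq (GRCm38.p6), 3903 through a unique synonym, as for Sis. Knockout was compared with wildtype by limma (lmFit, eBayes) with Benjamini-Hochberg adjustment over all genes and a threshold of 0.05, and the procedure was tested on simulated intensities. Exact permutation tests were two-sided. Replicates are labelled as separate mice. Their number limits the precision. No duplicate array was found, and every deposited column of values was mapped to its array.

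The members, lists and tests were chosen with earlier results of these data known. Named genes are Hnf4a, every member, up to 4 past-threshold genes with the largest difference per list (or the gene with the smallest p), and the most alike genes. Txnip, Pck1, Slc5a8, Hnf4g and Cdx2 were named after their values were seen. Some genes of the lists are not reported here by name, though the counts include them. Alternatives tried were other background, normalization, filter, probe and sample choices, list means as covariates and array weights.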

Additional observations from a re-analysis of the deposited data

Results flagged for a closer look

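On knockout array 3, Fbp1 stood at 6.87, while the next knockout array stood at 5.78. This gap took up 0.605 of the group's range, above Dixon's critical value for 8 values. The probe was detected on this array and on none of the other 7 knockout arrays. Of 24 groups of 8 values examined over the probes of the sugar genes and Hnf4a, 1 held such an array, where chance gives about 1 in 20.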

How the results depend on the processing

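Alternatives are set against 3115 genes and 1 sugar gene (Fbp1) past the threshold. The number of genes fell to 758 on slide 1 alone, to 1335 on slide 2 alone (fewer samples each) and to 967 with macrophage signal as covariate. The sugar genes past the threshold became 2 (Fbp1 and Khk) without background correction, with an offset of 50, under 75th percentile or median scaling, in the deposited processed table, on slide 2 alone, with array weights, and with the pan-epithelial mean subtracted. They became 0 without the detection filter, on slide 1 alone, and with the macrophage or adipocyte mean as a covariate. Leaving out 1 array gave between 0 and 2. With villus enterocyte signal as covariate, an alternative added once the data had been seen, the count stayed at 1, but it was Khk (-0.49, limma adjusted p = 0.0361) in place of Fbp1. Among probes detected on all 16 arrays the count was also 1 and the gene Khk, since Fbp1 was not tested there. Fbp1 was not past it in 14 of 34 alternatives and Khk was in 13 of 35. Median scaling moved the median of all genes to -0.11.

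Of the differences that reversed, none was past the threshold on either side. That of G6pc became 0.0659 without background correction, 0.0661 in the deposited table, 0.0265 with an offset of 50, 0.45 on slide 1, 1.04, 0.29 and 0.50 with the macrophage, adipocyte and villus covariates, and between -0.28 and 0.21 with 1 array left out. Treh became 0.67 on slide 1, 0.87 with the macrophage and 0.34 with the villus covariate. Slc5a1 became 0.12 on slide 1 and 0.52 with the macrophage covariate, Sis 0.64 and 0.0354 with the macrophage and villus covariates, and Ganab 0.11 with the macrophage covariate. The cause was not tested.

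The change of Slc2a2 minus G6pc was -0.70 on slide 1 and -1.35 on slide 2, where 4 against 4 arrays allow no exact permutation p under 0.0286 (adjusted 0.6 and 0.565), and -0.74 and -0.43 with the other Slc2a2 probes. Leaving out 1 array it lay between -1.12 and -0.93.

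Same-numbered arrays of the 2 groups deviated together (r over 0.1) in 6 of 8 pairs, with r between -0.23 and 0.39. Same-numbered arrays also lay on the same slide, and these deviations were not corrected for slide, so a shared slide and a pairing cannot be told apart. The values do not settle whether the numbers mark pairs, and the main test did not take them as pairs. The replicate block gave 3460 genes, against 3115 without it, and 1 sugar gene, Fbp1. With the block the SE was smaller for every tested sugar gene except Khk, most of all for Sis. The adjusted p of Fbp1 was also lower. Dim signal limits Slc2a5 and Fbp1 most.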
